A study of Mus musculus with 7 samples.

Results

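The 46 genes described here are targets of p53 and components of the DNA damage response, and they were chosen by name with earlier results of these data known. They were measured in primary neurons of C57/Bl6J mice, prepared from cortex on embryonic day 16 and kept for 16 days in vitro. In luciferase neurons (4 arrays) a lentivirus had delivered a short hairpin RNA against luciferase, a gene that mice lack, 2 weeks before RNA was taken, and blank neurons (3 arrays) were naïve by their treatment label and untransduced by the study's methods. The description field of the blank samples nevertheless carries the note of shRNA treatment for 2 weeks that the luciferase samples have. The virus and the hairpin were given together, so what each of them did cannot be told apart. The cultures were set up in quadruplicate and randomised over plates, and the authors omitted an untransduced sample at quality control. The labels name no separate litters, so the p-values given here measure only how these samples scatter, which may be technical. RNA came from whole cultures, in which fewer cells of a type and less RNA per cell cannot be told apart.

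p53 is a transcription factor that is held low in resting cells by *Mdm2* and *Mdm4* and is stabilised when DNA is damaged. The kinases ATM and ATR sense breaks and stalled replication and pass the signal through CHEK2 and CHEK1 to p53. p53 in turn drives genes that stop the cell cycle, trigger apoptosis, restrain mTOR or repair DNA. Neurons no longer divide, so in this cell type the pathway is known above all for neuronal death. Several of its targets also answer to other factors, among them *Bcl2l11* and *Bbc3* to FoxO proteins and *Btg2* to CREB.

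The array reads each transcript with 1 or more probe sets, which are groups of short probes. For the listed genes, 95 probe sets were annotated to 1 of them and to no other gene. Of these, 3 had names ending in _x_at, which marks probes that can bind unrelated transcripts, and were dropped, and 17 stayed below an intensity of 50 on every array. This left 75 probe sets over 43 genes among the 22748 probe sets tested in all. *Trp53* and *Bax* were not analysed here, and the probe set of *Fas*, a death receptor, lay between 17.5 and 33.4 and was below the level filter. Just inside that filter were *Polk* (1419501_at, 50.6 at its highest) and *Bcl2l11* (1456006_at, 53.4), and just outside it *Atr* (1445091_at, 43.6) and *Bcl2l11* (1435449_at, 39.3). A probe set was called higher or lower at an adjusted p of at most 0.05 from limma, with the adjustment over all 22748.

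The labelled tissue was checked with marker genes. All 8 neuronal markers were measured, and their summed intensity ranged from 35330.0 to 36914 in luciferase neurons and from 34671 to 37328 in blank neurons. Of the 8 genes 1 was called higher, *Slc17a7* (log2 change 0.39, adjusted p = 0.040 from limma), and 1 lower, the neurofilament gene *Nefl*, at 2158 ± 40.4 (SD) in luciferase neurons and 3758 ± 295 in blank neurons (-0.80, adjusted p = 0.00034). Astrocyte markers were also measured in full (9 of 9 genes), at 23707 to 26024 in luciferase neurons and 17519 to 19633 in blank neurons, and 6 of the 9 genes were called higher. Of the other lists, 2 of 7 microglial, 6 of 8 oligodendrocyte lineage, 5 of 8 vascular and meningeal and 6 of 7 proliferation markers passed the level filter. The summed vascular and meningeal markers were 563 to 764 in luciferase neurons and 978 to 1124 in blank neurons, and of the 5 genes 1 was called higher and 2 lower. Most of this sum was *Dcn*, called lower, which averaged 421 in luciferase neurons and 835 in blank neurons. The other gene called lower was *Col1a2* (log2 change -0.43), and *Pdgfrb* was called higher (0.70). The sum without *Dcn* was not computed. Median intensity per array was 237 to 241 in luciferase neurons and 216 to 235 in blank neurons.

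Promoter sequence shows which of the members carry recognisable sites close to the start of transcription. The 250 bases before the start were searched on both strands, in 32851 promoter windows from RefSeq (GRCm38.p6), for the p53 half-site of 10 bases, for the FoxO motif GTAAACA and for the cAMP response element TGACGTCA. A p53 half-site was found in 7.13% of all windows and in 9 of 41 windows of tested members, from 9 of 33 genes (*Aen*, *Ccng1*, *Cdkn1a*, *Ddit4l*, *Ei24*, *Gadd45a*, *Mdm2*, *Polk* and *Sesn1*). The FoxO motif stood in 3.17% of all windows and in those of *Bbc3*, *Bcl2l11* and *Mdm2*. The cAMP response element stood in 1.55% of all windows and in those of *Btg2* and *Trp53inp2*. Only the *Mdm2* window held matches to more than 1 motif, and these did not overlap. Of the 16 genes with a window and a probe set called higher, 7 had a p53 half-site, against 0 of 3 with a probe set called lower and 2 of 14 with none called. These counts are per gene, while the 7.13% is per window, and no share per gene was made over all genes. Genes with more than 1 window had more chances of a match. These were *Aen*, *Bbc3*, *Bcl2l11*, *Cdkn1a*, *Polk* and *Sesn1*, with a probe set called higher, and *Mdm4*, with one called lower. No test was made on these counts, and a match describes the letters of a window and not a bound site.

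The following stretches of 100 bases are shown for members that the results turn on, read 5′ to 3′ on the strand of the gene, with the matching letters in capitals. In *Cdkn1a* (chr17:29090872-29090971, plus strand) the p53 half-sites begin 73 and 51 bases before the start. Those of *Ccng1* (chr11:40755417-40755516, minus strand), *Ddit4l* (chr3:137623537-137623636, plus strand), *Sesn1* (chr10:41887221-41887320, plus strand) and *Mdm2* (chr10:117710890-117710989, minus strand) begin 185, 90, 173 and 186 bases before it. The start meant is that of the window shown. *Cdkn1a* and *Sesn1* each have another window, at another start (chr17:29093519-29093768 and chr10:41810324-41810573), with 0 half-sites.
Cdkn1a: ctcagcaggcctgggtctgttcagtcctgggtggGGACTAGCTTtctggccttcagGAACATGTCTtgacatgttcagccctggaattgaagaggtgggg
Ccng1: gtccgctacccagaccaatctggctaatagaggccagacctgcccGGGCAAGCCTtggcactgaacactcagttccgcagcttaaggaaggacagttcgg
Ddit4l: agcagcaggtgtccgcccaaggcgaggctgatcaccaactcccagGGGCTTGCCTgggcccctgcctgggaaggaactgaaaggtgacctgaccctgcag
Sesn1: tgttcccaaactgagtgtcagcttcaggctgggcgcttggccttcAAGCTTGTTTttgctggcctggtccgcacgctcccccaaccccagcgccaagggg
Mdm2: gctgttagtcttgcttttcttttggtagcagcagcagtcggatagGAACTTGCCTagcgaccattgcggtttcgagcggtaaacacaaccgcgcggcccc

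The FoxO motif of *Bcl2l11* (chr2:128125788-128125887, plus strand) begins 227 bases before the start, that of *Bbc3* (chr7:16310047-16310146, plus strand, read on the other strand) 167 bases, and the cAMP response element of *Btg2* (chr1:134079268-134079367, minus strand) 166 bases. They were picked because these genes were called higher and had no p53 half-site in these windows, so they say nothing on what raised the genes. Other windows of *Bcl2l11* and *Bbc3* held no match. The same motifs stood in *Mdm2* (FoxO) and *Trp53inp2* (cAMP response element), which were not called. *Apaf1*, *Atm*, *Chek1*, *Phlda3*, *Sesn2* and *Sesn3* had a probe set called higher and held none of the motifs searched.
Bcl2l11: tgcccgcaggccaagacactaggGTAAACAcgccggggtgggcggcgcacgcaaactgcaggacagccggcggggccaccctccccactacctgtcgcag
Bbc3: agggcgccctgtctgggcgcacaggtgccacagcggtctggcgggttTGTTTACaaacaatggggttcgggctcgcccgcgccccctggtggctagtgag
Btg2: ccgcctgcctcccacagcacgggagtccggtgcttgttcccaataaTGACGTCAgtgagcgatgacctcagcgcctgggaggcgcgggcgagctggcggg

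Most genes of the apoptosis list and of the mTOR, metabolism and autophagy list were called higher in luciferase neurons than in the untransduced cultures (13 of 19 and 7 of 12 probe sets). Of repair and sensor probe sets 4 of 25 were called higher, or 16.0%, which is close to the share over all tested probe sets. Among probe sets that reached 50 in both groups, 12 of 18 for apoptosis and 3 of 22 for repair and sensors were higher (66.7% and 13.6%). Of the 75 member probe sets, 28 were called higher, or 37.3%, where 16.2% of all tested probe sets were. Another 4 member probe sets (5.33%) were called lower, beside 8.26% of all tested. Over genes, each taken by its brightest probe set, 16 of 43 members were higher and 2 lower, beside 16.9% and 8.55% of 12315 genes. The median log2 change, luciferase minus blank, was 0.19 over the member probe sets and 0.056 over all tested probe sets. With each array centred on its median, 18 member probe sets were higher and 6 lower, beside 9.10% and 15.3% of all tested. Quantile normalization gave 24 higher and 6 lower, beside 11.8% and 11.1%. With a level of at least 50 required on all arrays, 26 of 64 member probe sets were higher, beside 18.2% of all tested.

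Few changes were large. Among the members, 5 probe sets were called and at least 1.5-fold higher, beside 2.9% of all tested, and 0 were called and at least 1.5-fold lower, beside 1.29%. The 5 belonged to *Bcl2l11*, *Ddit4l* (with 2), *Pmaip1* and *Trp53inp1*. In 31 member probe sets every luciferase array lay above every blank array, beside 22.5% of all tested, and in 4 every luciferase array lay below, beside 12.3%. In the other 40 the groups overlapped. At an unadjusted p under 0.05 from limma, 31 member probe sets were higher, beside 24.9% of all tested, and 5 lower, beside 14%, the 5 being those called and a further one of *Mdm4*, and 0 were at least 1.5-fold lower. Blank replicate 7 was the highest blank array in 49 of the 75, and the share over all tested probe sets was not computed. The summed astrocyte markers, higher in luciferase neurons, did not overlap between the groups either. Nor did the summed vascular and meningeal markers, lower there, of which *Dcn* made up most. The part of both sums in the member results was not tested. *Bcl2l11* (1456006_at) and *Chek1* (1450677_at), both called higher, reached 50 only on luciferase arrays, so they could enter the test only through the group in which they were high. Among the 71 member probe sets that reached 50 in both groups 26 were higher (36.6%) and 4 lower. The share over all probe sets that did so was not computed.

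**Figure D1:**
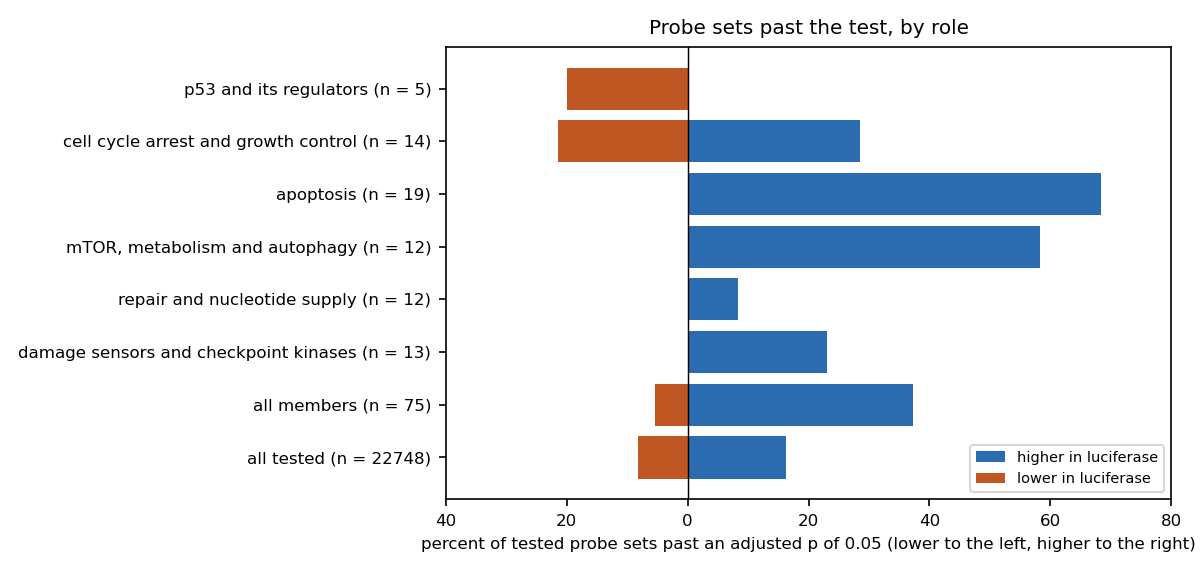
Percent of tested probe sets past an adjusted p of 0.05 from limma, to the right of 0 for higher in luciferase neurons (blue) and to the left for lower (orange), with 1 bar for each of the 6 roles, for all 75 members and for all 22748 probe sets. The apoptosis bar reaches 68.4% to the right and has no part to the left, and the repair bar reaches 8.33%.

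Among the regulators of p53, no probe set was called higher by limma and 1 of 5 was called lower, beside 16.2% and 8.26% of all tested. The median log2 change was 0.062. At an unadjusted p under 0.05 from limma 1 was higher and 2 lower, beside 24.9% and 14% of all tested. *Mdm2*, which encodes the ubiquitin ligase that degrades p53 and is itself a p53 target, read 532, 546, 580.0 and 527 in luciferase neurons, against 477, 512 and 586 in blank neurons on its brighter probe set (1423605_a_at). The groups overlapped, with a log2 difference of 0.06 ± 0.087 (standard error) at an adjusted p of 0.62 from limma and a 95% interval of -0.13 to 0.26. Its other probe set (1427718_a_at) read 194, 179.8, 185 and 213 in luciferase neurons, against 166, 168 and 159.9 in blank neurons. Here every luciferase array lay above the blank arrays, but the difference missed the threshold (0.23, adjusted p = 0.063 from limma).

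*Mdm4*, which encodes a relative of MDM2 that holds p53 inactive, gave different answers on its 3 probe sets. Probe set 1458223_at read 58.5, 55.9, 48.5 and 63.6 in luciferase neurons, against 80.2, 67.4 and 73.6 in blank neurons. All luciferase arrays were below all blank arrays, a log2 difference of -0.38 ± 0.10 (standard error) at an adjusted p of 0.027 from limma, and the call was lost without blank replicate 5 (adjusted p = 0.097 from limma), luciferase replicate 2 or luciferase replicate 3 (0.059 each). Probe set 1453982_at, close to the level filter, read 45.7, 59.0, 56.2 and 47.3 in luciferase neurons, against 57.3, 85.7 and 59.1 in blank neurons. It overlapped between the groups and did not pass (-0.36, adjusted p = 0.11 from limma). The brightest, 1460542_s_at, read 185, 201, 195 and 181 in luciferase neurons, against 178, 169 and 190.0 in blank neurons, which also overlapped (0.09, adjusted p = 0.41 from limma).

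Among genes of cell cycle arrest and growth control calls went both ways. Of 14 probe sets 4 were higher and 3 lower (28.6% and 21.4%, beside 16.2% and 8.26% of all tested), with a median log2 change of 0.11. By their brightest probe set 1 of 8 genes was higher and 2 lower, beside 16.9% and 8.55% of all genes. Without blank replicate 7 the counts were 7 higher and 2 lower of 14 probe sets, beside 21.4% and 9.59% of all tested. *Cdkn1a*, which encodes the p21 inhibitor of cyclin-dependent kinases and carries the pair of half-sites shown above, read 1499, 1804, 1629 and 1816 in luciferase neurons, against 1236, 988 and 1315 in blank neurons on probe set 1421679_a_at. Every luciferase array was above the blank arrays, a log2 difference of 0.52 ± 0.11 (standard error) at an adjusted p of 0.012 from limma. The other probe set of *Cdkn1a*, 1424638_at, read 2819.7, 3735, 3507 and 3501 in luciferase neurons, against 2815, 2132 and 3445 in blank neurons. It overlapped, since blank replicate 7 reached the range of the luciferase arrays (0.30, 95% interval -0.05 to 0.65, adjusted p = 0.19 from limma), and without that array it was called higher (0.46, adjusted p = 0.040 from limma).

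*Gadd45b*, which encodes a stress-induced partner of cell cycle kinases and MAP kinase kinases, went the other way. Its probe set 1420197_at read 47.8, 60.3, 55.4 and 60.3 in luciferase neurons, against 80.7, 83.4 and 71.3 in blank neurons, with no overlap and a log2 difference of -0.49 ± 0.10 (standard error) at an adjusted p of 0.0098 from limma. This was its dimmest tested probe set, close to the level filter, and the higher level filters left it out. The brighter probe sets averaged 143 (1449773_s_at) and 211 (1450971_at) in luciferase neurons, against 161 and 241 in blank neurons. Their log2 changes were -0.16 and -0.19, and they overlapped and did not pass. *Gadd45a* (-0.01, 95% interval -0.52 to 0.49) and *Gadd45g* (0.08, -0.12 to 0.28), the other genes of that family, did not pass.

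*Zmat3*, which encodes an RNA-binding zinc finger protein induced by p53, was lower at 1021 ± 56.3 in luciferase neurons (SD, n = 4), against 1319 ± 122 in blank neurons (SD, n = 3), a log2 difference of -0.37 ± 0.086 (standard error) at an adjusted p of 0.015 from limma. *Plk3*, a polo-like kinase of the stress response, was lower too (-0.30, adjusted p = 0.029 from limma). The *Plk3* call was lost in 5 of the 7 fits that left out an array, with an adjusted p of 0.102 from limma without blank replicate 5, 0.073 without luciferase replicate 3, 0.069 without luciferase replicate 1, 0.058 without luciferase replicate 4 and 0.051 without blank replicate 7.

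*Btg2*, an antiproliferative gene that promotes removal of poly(A) tails, was higher on both probe sets. On 1448272_at it averaged 280.4 ± 16.8 in luciferase neurons (SD, n = 4), against 209 ± 24.4 in blank neurons (SD, n = 3). On the brighter 1416250_at it averaged 383 ± 23.0 in luciferase neurons, against 287 ± 35.2 in blank neurons. The log2 changes were 0.43 and 0.42 in that order (adjusted p = 0.013 and 0.015 from limma). *Ccng1*, which encodes cyclin G1, was higher on 1 of 3 probe sets (1450016_at, 0.42, adjusted p = 0.015 from limma), and the other 2 overlapped, at 0.13 and 0.18, but were called higher without blank replicate 7 (0.28 and 0.33, adjusted p = 0.043 and 0.023 from limma). Proliferation markers, which would mark cells still dividing, summed to 1113 to 1588 in luciferase neurons and 1101 to 1129 in blank neurons, and none of the 6 measured was called by limma.

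Apoptosis genes had the highest share of calls of the 6 roles. Of 19 probe sets 13 were higher and 0 lower, beside 16.2% and 8.26% of all tested, with a median log2 change of 0.39. By their brightest probe set 9 of 11 genes were higher, beside 16.9% of all genes. The 13 include *Bcl2l11* 1456006_at, which could enter the test only through the luciferase arrays. Among probe sets that reached 50 in both groups 12 of 18 were higher. Across the 16 alternative settings between 8 and 15 of these probe sets were higher and 0 were lower. The count was 8 without luciferase replicate 3, blank replicate 5 or blank replicate 6 (beside 11.52%, 9.69% and 8.86% of all tested). It was 15 with array weights (beside 27.6%).

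BH3-only proteins disarm BCL2 and its relatives at the mitochondrion, and of the 4 BH3-only genes listed, *Bcl2l11*, *Pmaip1* and *Bbc3* were called higher and *Bid* was not. *Bcl2l11*, which encodes BIM, a member of this class known from dying neurons, read 347, 365, 419 and 472 in luciferase neurons, against 203, 187 and 156 in blank neurons (1456005_a_at). The lowest luciferase array lay well above the highest blank array, with a log2 difference of 1.14 ± 0.13 (standard error) at an adjusted p of 7.0e-04 from limma, or 2.20-fold. Probe set 1435448_at read 214, 224, 239 and 213 in luciferase neurons, against 146, 162 and 153 in blank neurons, again apart, with a log2 difference of 0.53 ± 0.076 (standard error) at an adjusted p of 0.0021 from limma. Probe set 1456006_at, which reached 50 only on luciferase arrays, was higher by 0.36 (adjusted p = 0.029 from limma), a call that was lost without blank replicate 5 (adjusted p = 0.103 from limma) and without luciferase replicate 1, 3 or 4 (0.063, 0.054 and 0.068). The remaining *Bcl2l11* probe sets stayed below 50. They averaged 36.5 (1435449_at) and 21.3 (1426334_a_at) in luciferase neurons and 23.9 and 15.3 in blank neurons, and on both every luciferase array was above every blank array.

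*Pmaip1*, which encodes NOXA, read 418, 487, 448 and 391 in luciferase neurons, against 231, 188 and 367 in blank neurons. The groups did not overlap, but blank replicate 7 stood closer to the luciferase arrays than to the other blank arrays. The test gave a log2 difference of 0.79 ± 0.19 (standard error) at an adjusted p of 0.018 from limma, or 1.73-fold, and the call was lost without blank replicate 5 (0.73, adjusted p = 0.061 from limma) or blank replicate 6 (0.58, adjusted p = 0.058).

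*Bbc3*, which encodes PUMA, read 537, 556, 536 and 389.2 in luciferase neurons, against 344, 316 and 388.8 in blank neurons. Luciferase replicate 4 was the low array of its group and lay just above blank replicate 7. The result was a log2 difference of 0.52 ± 0.13 (standard error) at an adjusted p of 0.021 from limma, and the call was lost without blank replicate 5 or 6 (adjusted p = 0.061 and 0.078 from limma) and without luciferase replicate 1, 2 or 3 (0.051, 0.053 and 0.058). *Bid*, whose protein is cut by caspase-8, did not pass on either probe set (both -0.04, 95% interval -0.28 to 0.20 for 1417045_at).

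**Figure D2:**
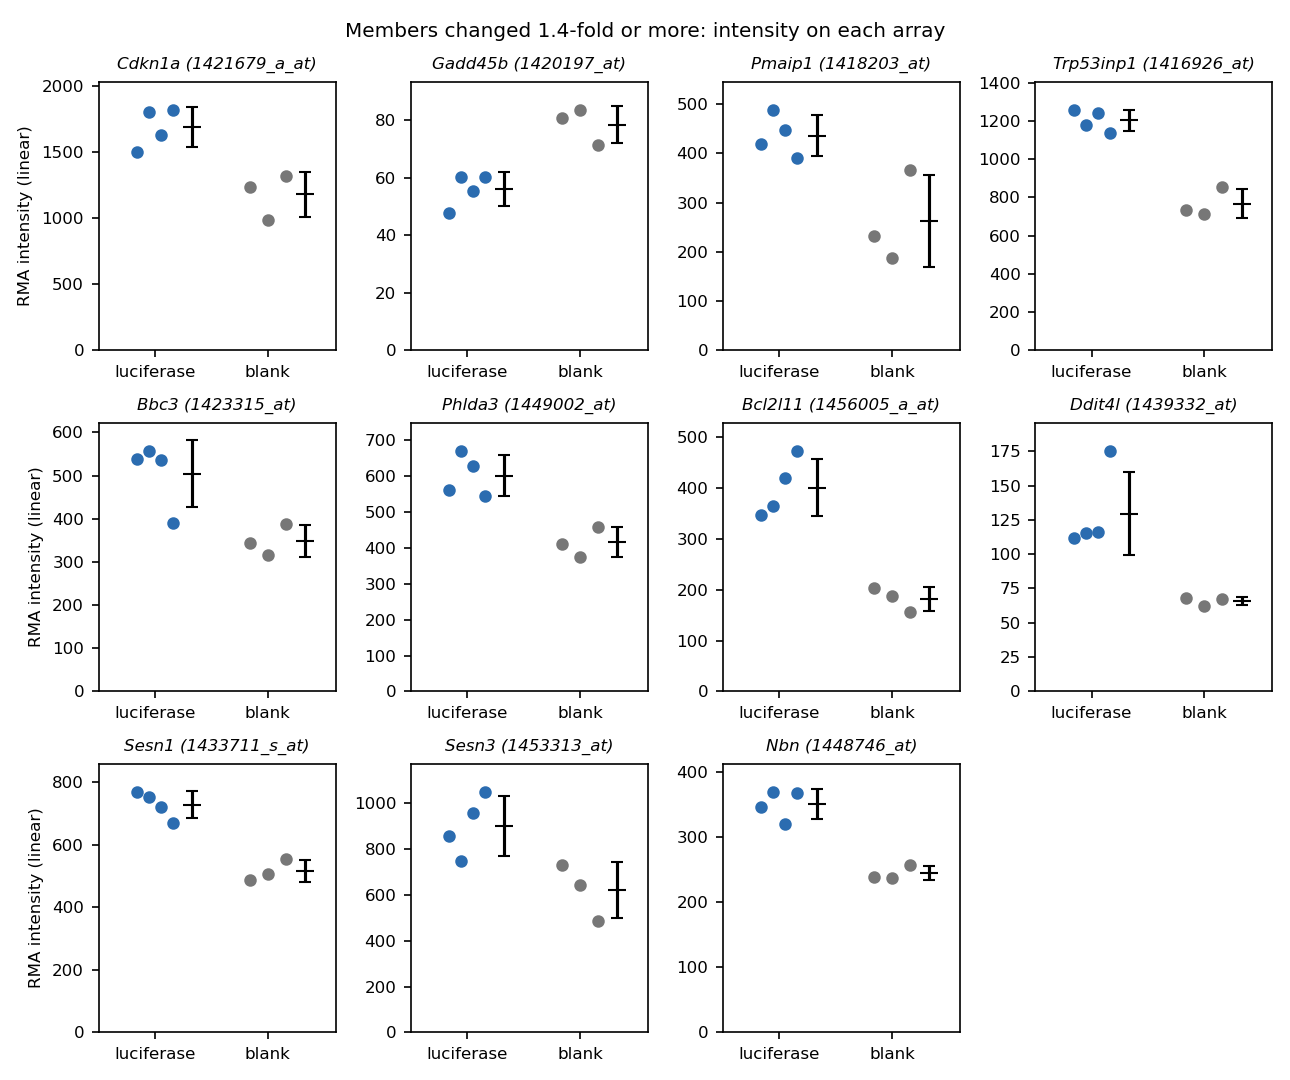
Linear RMA intensity on each of 4 luciferase arrays (blue) and 3 blank arrays (grey) for the 11 members that passed the test and changed by at least 1.4-fold, each on its probe set with the largest change, and the bar beside the points gives mean ± SD. In 10 panels the luciferase arrays lie above the blank arrays, and in *Gadd45b* they lie below, at 47.8 to 60.3 in luciferase neurons and 71.3 to 83.4 in blank neurons.

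*Trp53inp1*, which encodes a nuclear protein that p53 induces and that favours p53-dependent death and autophagy, read 1256, 1179, 1239 and 1138 in luciferase neurons, against 735, 716 and 853 in blank neurons on probe set 1416926_at. The groups lay far apart against their spread, with a log2 difference of 0.65 ± 0.084 (standard error) at an adjusted p of 0.0013 from limma, or 1.57-fold. Its dimmer probe set, 1416927_at, was higher by 0.49 (adjusted p = 0.026 from limma), a call lost without luciferase replicate 1, 2 or 3 (adjusted p = 0.057, 0.052 and 0.054 from limma) and without blank replicate 6 or 7 (0.079 and 0.056).

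*Phlda3*, a p53 target that inhibits AKT at the membrane, read 562, 669.6, 628 and 546 in luciferase neurons, against 412, 376 and 459 in blank neurons. Its groups did not overlap (0.53, standard error 0.10, adjusted p = 0.0067 from limma). *Apaf1*, which encodes the scaffold of the apoptosome, was higher on both probe sets, by 0.41 and 0.39 (adjusted p = 0.0093 and 0.0059 from limma). The brighter averaged 446 ± 20.6 in luciferase neurons (SD, n = 4), against 340.3 ± 10.2 in blank neurons (SD, n = 3). *Perp*, a membrane protein gene induced by p53, was higher by 0.41 (adjusted p = 0.0073 from limma).

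*Ei24* and *Aen* had the smallest changes among the apoptosis calls. *Ei24*, which encodes a membrane protein of the endoplasmic reticulum, averaged 2456 ± 70.9 in luciferase neurons (SD, n = 4), against 2107 ± 36.4 in blank neurons (SD, n = 3) (0.22, adjusted p = 0.038 from limma). The adjusted p from limma was between 0.054 and 0.116 in the 6 fits without luciferase replicate 1, 2, 3 or 4 or blank replicate 5 or 6. *Aen*, which encodes an apoptosis-enhancing nuclease, was higher on 1 of 4 probe sets (1423957_at, 0.29, adjusted p = 0.036 from limma), and the same 6 fits gave 0.056 to 0.123. Its other probe sets were at 0.15 to 0.37 and did not pass, though 1437373_at passed without blank replicate 7 or luciferase replicate 1 (0.46 each, adjusted p = 0.029 and 0.025 from limma). *Pidd1*, a scaffold of the caspase-2 complex, did not pass (0.08, 95% interval -0.11 to 0.27).

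**Figure D3:**
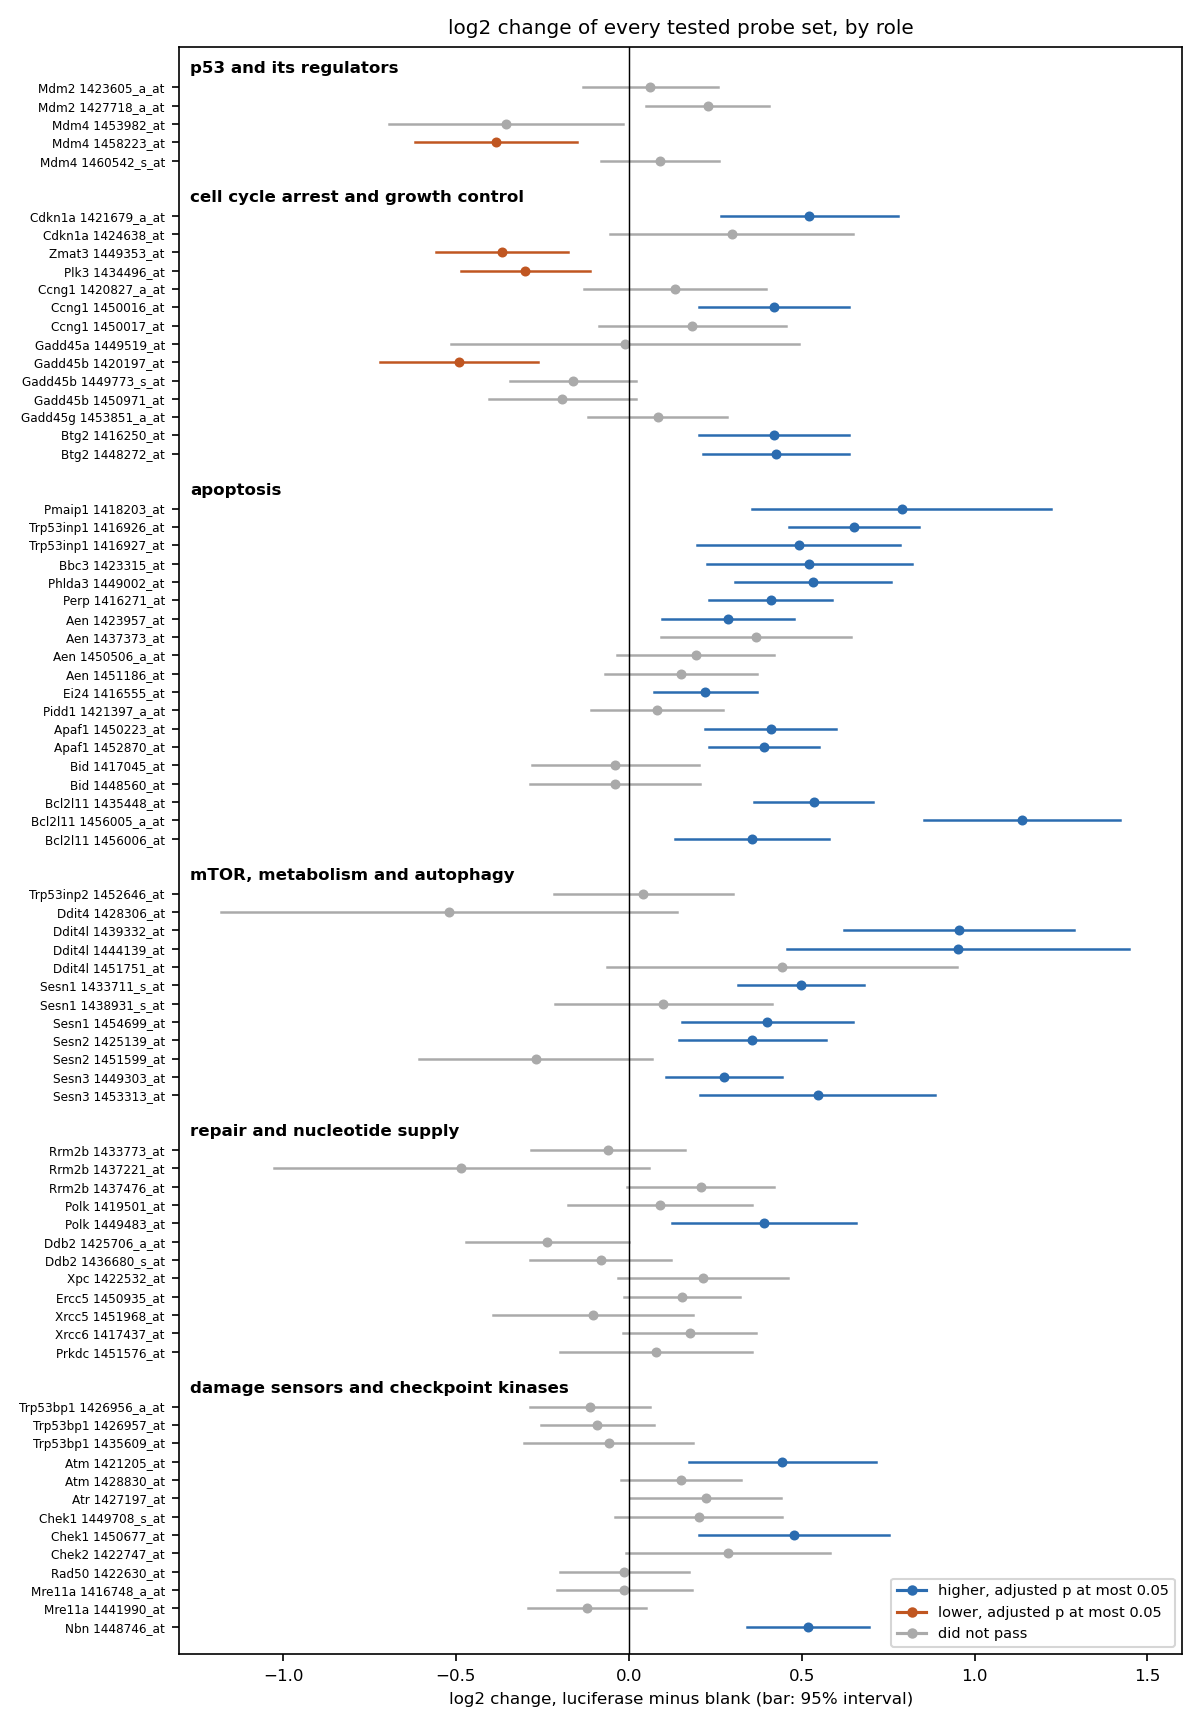
Change on the log2 scale, luciferase minus blank, with its 95% interval for each of the 75 tested probe sets, grouped by the 6 roles, in blue for called higher, orange for called lower and grey for not passed. Apoptosis probe sets reach from -0.04 to 1.14, repair probe sets from -0.48 to 0.39.

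Genes that act on mTOR, metabolism and autophagy formed the other role with many calls. Of 12 probe sets 7 were higher and 0 lower, beside 16.2% and 8.26% of all tested, with a median log2 change of 0.38. The higher count moved with the settings. It was 3 without luciferase replicate 1 or blank replicate 6 (beside 11.4% and 8.86%), 4 after median centring (beside 9.10%) and 8 with array weights (beside 27.6%). Without luciferase replicate 1, 1 probe set was called lower (beside 5.67%). *Ddit4l* encodes an inhibitor of mTORC1 related to DDIT4. It read 112, 116, 116 and 175 in luciferase neurons, against 68.0, 62.2 and 67.0 in blank neurons on probe set 1439332_at, so that every luciferase array was above the blank arrays and luciferase replicate 4 was far above the others. The test gave a log2 difference of 0.96 ± 0.15 (standard error) at an adjusted p of 0.0030 from limma, or 1.94-fold. Probe set 1444139_at read 104, 107, 120.0 and 211 in luciferase neurons, against 65.6, 75.4 and 60.8 in blank neurons, with the same array on top (0.95, standard error 0.22, adjusted p = 0.015 from limma). Probe set 1451751_at read 52.9, 56.1, 59.4 and 109 in luciferase neurons, against 41.9, 52.8 and 52.1 in blank neurons. Its groups came within 1 unit of each other and it did not pass (0.44, adjusted p = 0.18 from limma).

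*Ddit4* itself, which responds to stress and glucocorticoids, read 1477, 1024, 1018 and 1031 in luciferase neurons, against 1036, 1404 and 2869 in blank neurons. The groups overlapped, with blank replicate 7 high and luciferase replicate 1 above its group, and the change of -0.52 had a 95% interval of -1.18 to 0.14 (adjusted p = 0.22 from limma). Whether *Ddit4* and *Ddit4l* differ in their change was not tested.

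Sestrins, which restrain mTORC1 and limit oxidative stress, were called higher in all 3 genes, though not on all probe sets. *Sesn1* read 768, 754, 721 and 669.8 in luciferase neurons, against 486, 505 and 555 in blank neurons on probe set 1433711_s_at. Its luciferase arrays all lay above its blank arrays (0.50, standard error 0.081, adjusted p = 0.0037 from limma). The other 2 probe sets of *Sesn1* gave 0.40 (1454699_at, adjusted p = 0.028 from limma) and 0.10 (1438931_s_at, adjusted p = 0.63). The call of 1454699_at was lost in the 5 fits without luciferase replicate 1, 2 or 3 or blank replicate 5 or 6, at an adjusted p of 0.063 to 0.10 from limma.

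*Sesn3* read 855, 746, 955 and 1047 in luciferase neurons, against 731, 642 and 488 in blank neurons on probe set 1453313_at. Luciferase replicate 2 lay just above blank replicate 5, and the other arrays were further apart (0.55, standard error 0.15, adjusted p = 0.029 from limma). On 1449303_at the change was 0.28 (adjusted p = 0.027 from limma). Each *Sesn3* call was lost in most of the fits that left out an array. The adjusted p from limma was then 0.051 to 0.074 for 1453313_at (without luciferase replicate 1, 3 or 4 or blank replicate 6 or 7) and 0.051 to 0.10 for 1449303_at (without any luciferase replicate or blank replicate 5 or 6).

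*Sesn2*, a leucine sensor, was higher on 1425139_at (0.36, adjusted p = 0.025 from limma), whereas 1451599_at had the opposite sign and did not pass (-0.27, adjusted p = 0.21). The call was lost without luciferase replicate 1, 2 or 4 or blank replicate 5 or 6 (adjusted p of 0.052 to 0.079 from limma). Without luciferase replicate 1, 1451599_at was called lower (-0.40, adjusted p = 0.046 from limma). *Trp53inp2*, an autophagy gene related to *Trp53inp1*, did not pass (0.04, 95% interval -0.22 to 0.30).

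Of the repair probe sets 1 of 12 was higher, beside 16.2% of all tested, and 0 were lower, with a median log2 change of 0.084. The call was in *Polk*, which encodes a polymerase that copies past damaged bases. It averaged 193 ± 18.1 in luciferase neurons (SD, n = 4), against 148 ± 23.5 in blank neurons (SD, n = 3) on probe set 1449483_at (0.39, adjusted p = 0.039 from limma). This call was lost without luciferase replicate 1, 2 or 3 or blank replicate 5 or 6, at an adjusted p of 0.060 to 0.132 from limma, and the other *Polk* probe set, at the level filter, was at 0.09.

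Nucleotide excision repair was represented by *Ddb2* and *Xpc*, which recognise the lesion, and *Ercc5*, a nuclease that cuts beside it. Their log2 changes were -0.24 and -0.08 for *Ddb2*, 0.21 for *Xpc* and 0.15 for *Ercc5*, none past the test. *Ddb2* 1425706_a_at was called lower under quantile normalization (-0.32, adjusted p = 0.044 from limma), median centring (-0.33, 0.036) and array weights (-0.30, 0.027). The 3 genes of the DNA-PK complex that joins broken ends did not pass either. *Xrcc6* was at 0.18 (95% interval -0.02 to 0.37), *Xrcc5* at -0.10 (-0.39 to 0.18) and *Prkdc* at 0.08 (-0.20 to 0.36). Without blank replicate 7 *Xrcc6* was called higher (0.25, adjusted p = 0.047 from limma). *Rrm2b*, which encodes the p53-inducible subunit of ribonucleotide reductase, had changes of -0.48, -0.06 and 0.21 on its 3 probe sets (1437221_at, 1433773_at and 1437476_at), all overlapping. Without luciferase replicate 1, which was the high array of its group, 1437221_at was called lower (-0.74, adjusted p = 0.0078 from limma). With blank replicate 7 left out, 1437476_at was called higher (0.30, adjusted p = 0.032 from limma).

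Among damage sensors and checkpoint kinases, 3 of 13 probe sets were higher and 0 lower (23.1% and 0, beside 16.2% and 8.26% of all tested). The median log2 change was 0.15. *Nbn*, which encodes the NBS1 subunit of the MRN complex that binds broken ends and recruits ATM, read 346, 369, 321 and 369 in luciferase neurons, against 239, 238 and 257 in blank neurons. The groups lay well apart, with a log2 difference of 0.52 ± 0.079 (standard error) at an adjusted p of 0.0027 from limma. Its partners *Rad50* (-0.01, 95% interval -0.20 to 0.17) and *Mre11a* (-0.01, -0.21 to 0.18, on the brighter probe set) did not pass.

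*Atm*, the kinase activated by double-strand breaks, read 111, 131, 139 and 163 in luciferase neurons, against 95.2, 96.4 and 105 in blank neurons on probe set 1421205_at. The groups were separate but close, with a log2 difference of 0.44 ± 0.12 (standard error) at an adjusted p of 0.027 from limma, and the call was lost without luciferase replicate 2 or 3 (adjusted p = 0.052 and 0.067 from limma) and without blank replicate 5 or 6 (0.083 and 0.081). Probe set 1428830_at read 184, 191, 186 and 192 in luciferase neurons, against 181, 175 and 154 in blank neurons. It kept the same order of groups at a smaller distance and did not pass (0.15, adjusted p = 0.18 from limma).

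*Chek1*, the kinase downstream of ATR, was higher on the dim probe set 1450677_at, at 53.9 ± 8.08 in luciferase neurons (SD, n = 4), against 38.6 ± 4.20 in blank neurons (SD, n = 3) (0.48, adjusted p = 0.023 from limma). The call was lost without luciferase replicate 1 (adjusted p = 0.053 from limma) or blank replicate 5 or 6 (0.074 and 0.079). This probe set reached 50 only on luciferase arrays, so its call is a description, and without it and a *Mre11a* probe set that reached 50 only on blank arrays 2 of 11 sensor probe sets were higher. The brighter *Chek1* probe set (1449708_s_at) did not pass, at 0.20. *Chek2* (0.29, 95% interval -0.01 to 0.58) and *Atr* (0.22, 0.00 to 0.44) did not pass, but both were called higher without blank replicate 7 (0.45 and 0.30, adjusted p = 0.014 and 0.042 from limma) and with array weights (0.47 and 0.24, adjusted p = 0.0045 and 0.031). *Trp53bp1*, which encodes a scaffold at double-strand breaks, was at -0.11, -0.09 and -0.06 on its 3 probe sets, all overlapping and none called.

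In the main fit, repair and sensor genes together gave 4 of 25 probe sets higher and 0 lower over 16 genes. Apoptosis gave 13 of 19 and 0, and mTOR and metabolism 7 of 12 and 0. Among probe sets that reached 50 in both groups, 3 of 22 repair and sensor probe sets and 12 of 18 for apoptosis were higher. Without blank replicate 6 the higher counts were 8 of 19 for apoptosis and 3 of 12 for mTOR and metabolism. At an unadjusted p under 0.05 from limma, the lower count in these lists was also 0, beside 14% of all tested. The higher count of repair and sensor probe sets was 1 without blank replicate 5 or 6 (beside 9.69% and 8.86% of all tested), 8 without blank replicate 7 (beside 21.4%) and 11 with array weights (beside 27.6%). The lower count was 1 after median centring and after quantile normalization (*Ddb2* both times, beside 15.3% and 11.1% of all tested). It was 1 without luciferase replicate 1 (*Rrm2b*, beside 5.67%) and 2 with array weights (*Ddb2* and *Mre11a* 1441990_at, beside 14.4%). In the main fit 16.2% of all tested probe sets were called higher and 8.26% lower, and no test was made between the roles.

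Probe sets of 1 gene often differed in their call. Of 22 genes with 2 or more tested probe sets, 19 had the same sign on all of them. All probe sets passed in 5 genes (*Apaf1*, *Bcl2l11*, *Btg2*, *Sesn3* and *Trp53inp1*), some passed in 11 and none in 6, and 0 genes were called in both directions. Of the *Bcl2l11* probe sets, 1456006_at could enter the test only through the luciferase arrays. Signs were mixed in *Mdm4*, *Rrm2b* and *Sesn2*. Where the probes of each set lie in the transcript was not analysed here.

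The p53 pathway holds other genes that are not among the 46. Of 44 such genes 32 were measured, with 6 higher and 2 lower by their brightest probe set (18.8% and 6.25%, beside 16.9% and 8.55% of all 12315 genes) and a median log2 change of 0.15. Over probe sets 17 of 74 were higher (23.0%) and 7 lower (9.46%), beside 16.2% and 8.26% of all tested. Of the 74, 5 were called and at least 1.5-fold higher, beside 2.9% of all tested. The shares over genes lie near the background, and the genes named here are examples of single calls. *Ccne2*, which encodes cyclin E2 of the entry into S phase, read 225, 216, 212 and 164 in luciferase neurons, against 88.0, 92.3 and 109 in blank neurons (1422535_at). Every luciferase array lay above the blank arrays, a log2 difference of 1.08 ± 0.12 (standard error) at an adjusted p of 7.6e-04 from limma. *Ppm1d*, which encodes the WIP1 phosphatase that switches the damage signal off, was higher by 0.41 (adjusted p = 0.0062 from limma), and *Siah1a*, a ubiquitin ligase gene, by 0.29 (adjusted p = 0.025). *Ing1*, which encodes a chromatin reader that cooperates with p53, was lower (-0.41, adjusted p = 0.0048 from limma).

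Of 53 other repair and checkpoint genes 45 were measured, with 5 higher and 2 lower (11.1% and 4.44%, beside 16.9% and 8.55% of all genes) and a median log2 change of 0.083. Both shares lie below the background. *Rev1*, which like *Polk* encodes a polymerase of translesion synthesis, read 332, 341, 314 and 301 in luciferase neurons, against 217, 177 and 217 in blank neurons. The groups did not overlap, a log2 difference of 0.66 ± 0.093 (standard error) at an adjusted p of 0.0019 from limma. *Rad17*, which loads the checkpoint clamp, was higher by 0.32 (adjusted p = 0.015 from limma), *Rpa2*, a subunit of the single-strand binding protein, by 0.31 (adjusted p = 0.025), and *Ung*, the uracil glycosylase of base excision repair, by 0.51 (adjusted p = 0.027). The remaining gene called higher was *Clspn* (0.35, adjusted p = 0.037 from limma). *Ogg1*, the glycosylase that removes oxidised guanine, was lower (-0.26, adjusted p = 0.039 from limma), and so was *Rad18*, a ubiquitin ligase gene of translesion synthesis (-0.46, adjusted p = 0.049).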

How the data were processed

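RNA of 4 luciferase and 3 blank samples was read on Affymetrix mouse expression arrays. The deposited unit was linear intensity, between 4.69 and 23763, after RMA normalization by the authors. The RMA version, and whether the 7 arrays were normalized together, are not given in the sources used here. Labels and methods differ in the RNA extraction reagent. In the deposited table the blank columns sit 1 row low. Over 45036 probe sets the log2 group means had r = 0.421 as deposited and 0.995 after a move of 1 row, which was applied. The table held 0 columns of other samples.

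Of 45101 probe sets, 64 controls and 2441 with names ending in _x_at were left out. The 22748 that reached 50 on at least 1 array were tested on the log2 scale by the moderated test of limma 3.58.1 (R 4.3.3), luciferase minus blank and without covariates, and p-values were adjusted by Benjamini-Hochberg over all 22748. Gene names came from the platform annotation: 34958 probe sets name 1 gene, 932 several and 9211 none, and 34754 symbols matched a RefSeq gene table. Values on every array are given for members that passed and changed by at least 1.4-fold and for *Mdm2*, *Mdm4* and *Atm*, and from each list of other genes for the leading gene, with up to 4 genes of smallest adjusted p named. Values and names beyond this rule, among them *Clspn*, *Ogg1* and *Rad18*, were chosen after they were seen. The members and lists were chosen with earlier results of these data known. The 16 alternatives covered the level filter, the _x_at probe sets, scaling, array weights, eBayes options, a pseudocount of 16 and leaving out each array. Precision was limited by having 7 arrays, with a median moderated SD of 0.12 on the log2 scale.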

Additional observations from a re-analysis of the deposited data

Results flagged for a closer look

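In 9 of the 75 member probe sets 1 luciferase array stood apart from the other 3, by the ratio of its gap to the whole range of the group, which exceeded the 95% critical value of Dixon's test for 4 samples. Chance gives this in about 1 in 20 groups of independent, normally distributed values. The ratio was taken on linear intensities, and 3 of the 9 probe sets belong to *Ddit4l*. No share over all tested probe sets was computed, so whether 9 is many for the members was not tested. Luciferase replicate 4 was that array in *Ddit4l* on all 3 probe sets (ratios 0.935 for 1439332_at, 0.853 for 1444139_at and 0.883 for 1451751_at, high each time). It was also that array in *Bbc3* (0.879, low), *Ccng1* 1450017_at (0.873, low) and *Trp53bp1* 1426956_a_at (0.92, high). Luciferase replicate 1 was that array in *Ddit4* (0.972, high), *Btg2* 1416250_at (0.867, high) and *Rrm2b* 1437221_at (0.84, high).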

How the results depend on the processing

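Of the 32 called member probe sets, 16 kept their call under every alternative that tested them, 16 lost it under 1 or more and 0 reversed. Of the 43 not called, 20 passed under 1 or more alternatives. The count called higher (28) was 18 after median centring of the arrays (beside 9.10% of all tested probe sets), and over the fits that left out an array it ranged from 16 to 34 (18 without luciferase replicate 1 or 3, 17 without blank replicate 5, 16 without blank replicate 6 and 34 without blank replicate 7, beside 11.4%, 11.52%, 9.69%, 8.86% and 21.4% of all tested). Array weights, which gave blank replicate 7 a weight of 0.27, called 40 higher, beside 27.6% of all tested. The count called lower (4) was 2 with at least 100 on 1 array, 2 with at least 50 on all arrays and 8 with array weights (beside 7.70%, 7.79% and 14.4%), and ranged from 2 to 5 without 1 array (2 without luciferase replicate 3 or blank replicate 5, beside 5.50% and 5.07%). The count at least 1.5-fold higher (5) ranged from 4 to 8 without 1 array (8 without blank replicate 7, beside 3.70%). The count at least 1.5-fold lower (0) was 1 after median centring (beside 2.32%) and ranged from 0 to 1 without 1 array (1 without luciferase replicate 1, beside 1.35%). The higher filters test fewer probe sets, and leaving out an array leaves fewer samples. For the other changes the cause was not tested. Calls of *Aen*, *Ei24*, *Polk*, *Sesn1* 1454699_at and *Sesn3* were lost after median centring, and so were those of *Atm*, *Ccng1* 1450016_at, *Bcl2l11* 1456006_at and *Trp53inp1* 1416927_at. No paired analysis was possible because the luciferase replicates are numbered 1 to 4 and the blank replicates 5 to 7, so the groups share no number.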
